A study of Callithrix jacchus with 54 samples.

Results

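The genes described here carry the symbol ZNF followed by a number, the name given to zinc-finger genes that were numbered in the order in which they were found. They were chosen by their level: in a table of TPM (read counts scaled for transcript length and library size), a gene was taken when the mean of its 2 replicates was at least 10 TPM in at least 1 of 27 conditions. This selected 109 of the 237 ZNF genes in the table, which holds 14812 genes in all. The other 128 ZNF genes were below 10 TPM in every condition, and 36 of them were below 1 TPM in every condition. Since the level chose the genes, that they are expressed is no result, and a gene that reached 10 TPM in a single condition had to differ between conditions. Of the 109 genes, 43 were at 10 TPM or more in every condition and 9 in 1 condition only. Just inside the limit, the highest condition mean was 10.1 TPM for ZNF285, 10.2 for ZNF407, 10.3 for ZNF213 and 10.5 for ZNF582. Just outside it were ZNF444 with 9.66 TPM, ZNF787 with 9.62, ZNF652 with 9.30 and ZNF664 with 9.22.

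Most ZNF proteins bind DNA through tandem C2H2 zinc fingers, and many also carry a KRAB domain, which recruits the corepressor TRIM28 and, through it, histone methyltransferases and heterochromatin proteins. KRAB zinc-finger proteins are known for silencing transposable elements and for guarding imprinted loci while the germline and early embryo are demethylated. The symbol is a naming series, not a function: other ZNF proteins act in ribosome assembly, splicing, translation control or as cofactors of signalling pathways.

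Bulk RNA sequencing was done on marmoset (Callithrix jacchus) embryonic stem cells (cjESCs) and on cells on the way to primordial germ cell-like cells (cjPGCLCs), as 54 libraries, 2 per condition. All libraries come from the CMES40 line carrying a BLIMP1-tdTomato and a NANOS3-eGFP reporter. The arms ask how forced SOX17, BMP4, the WNT inhibitor IWR1 and the retinoic acid receptor inverse agonist BMS493 act on the way to cjPGCLCs, and what follows in reconstituted ovaries.

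The first arm used cells with the further transgenes rtTA, tetO-BLIMP1, SOX17-GR and DD-TFAP2C, kept in DK20FA medium. These were aggregated for 12, 24, 48 or 96 h in BLSE (BMP4, LIF, SCF, EGF and a Rock inhibitor), in BLSE with SOX17 switched on by dexamethasone through the SOX17-GR fusion, or in LSE, which lacks BMP4, with SOX17 switched on. The other arm is labelled wild type and was kept in PESFA medium. Its cells were pre-treated for 24 h with IM12 and activin A and aggregated for the same 4 times in BLSE with IWR1, with or without BMS493, or for 6 days with IWR1. Day 6 cells with IWR1 were then aggregated with mouse gonadal somatic cells into xenogeneic reconstituted ovaries (xrOvaries) for 20, 40 or 70 days. Starting and pre-treated cells were sorted for TRA-1-60 away from mouse feeder cells. Aggregates at 12 to 48 h and BLSE at 96 h were taken as all cells, and the other 96 h samples, day 6 cells and xrOvary cells were sorted for tdTomato. As limits of the model, both arms are clonal derivatives of 1 line, medium and line differ together between them and cannot be told apart, and sorted cells are compared with other gates. Dexamethasone was added where SOX17 was switched on, so an effect of dexamethasone itself cannot be told apart from that of SOX17.

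Each library lists 10146 to 12688 genes above 0, and the listed TPM of a library add up to between 790300 and 839203. No pair of libraries was identical. The depth is unknown, since the files give no counts, so a low TPM value carries an unknown counting error. Differences are given as log2 fold changes of TPM + 1 with their standard error (SE), from a limma model with 1 mean per condition over all 54 libraries (27 residual degrees of freedom) and p-values adjusted by Benjamini-Hochberg over the 11197 genes tested. A gene is called, and described as having risen or fallen, at an adjusted p under 0.01. All 109 genes were among those tested. An exact permutation test of 2 libraries against 2 cannot go below p = 0.33, so each call rests on the spread pooled over all conditions. Fitting only the libraries compared left 24 of the 148 called changes of the ZNF genes named here past the threshold. Without each compared library in turn, 75 of the 148 stayed past it throughout, and a ZNF gene described with its values below is among these 75 unless a library is named. The 148 hold ZNF genes only, so genes of the corepressor machinery and of the cell type markers are not among them. Genes only listed may not be. A gene that passed the limit of 10 TPM only where it is high had to differ. So for the 19 genes at 10 TPM or more in at most 3 conditions (of those described, ZNF436, ZNF488, ZNF490, ZNF503, ZNF524, ZNF564, ZNF582, ZNF597 and ZNF750), a comparison with 1 of these conditions is described by values without a p, a limit set after the values were seen, though the counts of called genes include them. The same was done for the other described genes with up to 11 such conditions, among them ZNF316, ZNF596, ZNF671, ZNF711 and ZNF784. The choice bears less on genes with more such conditions, but is not absent from their differences. In bulk RNA, fewer cells of a type and less RNA per cell cannot be told apart.

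The marker genes fixed for each cell type were compared with the labels. Of 7 pluripotency genes, all in the table, POU5F1 was the most abundant in every condition but BLSE at 96 h, where LIN28A led and the 7 genes summed to 1481 and 1272 TPM in the 2 libraries, against 7271 and 6138 TPM in cjESCs in DK20FA. SOX2 was at 0 in both libraries of the xrOvaries at days 20 and 40. The 6 early germ cell genes, which include PRDM1, the gene behind the sorting reporter, and SOX17, summed to 839 and 674 TPM in cjESCs in DK20FA and to 3377 and 3162 TPM in sorted SOX17 BLSE cells at 96 h. Their sum was 3071 and 3319 TPM in day 6 IWR1 cells, where PDPN led with 1064 and 1037 TPM. The paper describes the sorted cells as positive for both reporters, so high PRDM1 and NANOS3 there follow from the gate. SOX17 is also a transgene in the first arm, and whether its reads add to SOX17 cannot be told from the TPM. Late germ cell genes, also 6, summed to 3.30 and 8.71 TPM in cjESCs in PESFA and to 145 and 158 TPM in xrOvaries at day 70, with MAEL leading at 69.4 and 72.4 TPM. Of 8 gonadal somatic genes 5 were in the table, NR5A1 was at 0 in all 6 xrOvary libraries, and their sum was 16.1 and 16.2 TPM at day 20 and 0.780 and 1.78 TPM at day 70. Most of it was KRT19, which was 2957 and 2739 TPM in BLSE aggregates at 48 h, so the list does not single out gonadal cells here.

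Among themselves the 109 genes differ widely in level. The highest condition mean reached 20 TPM in 69 of them, 50 TPM in 24 and 100 TPM in 5, and 76 had a mean over all libraries of 10 TPM or more. By mean over all libraries the most abundant was ZNF593, with single libraries between 65.5 and 238 TPM. ZNF428 came next and spanned 42.5 to 384 TPM. The range of condition means of log2(TPM + 1) ran from 0.75 for ZNF281 to 5.54 for ZNF703, with a median over the genes of 1.56. The spread between replicates, pooled over conditions, had a median of 0.22 on the same scale and was at most 0.41.

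Summed over the 109 genes, the level was lowest in cjESCs in PESFA, with 1993 and 1817 TPM, and highest in xrOvaries at day 20, with 2935 and 2892 TPM. By day 70 the sum was 2067 and 2306 TPM. The number of the genes at 10 TPM or more ran from 64 in BLSE at 96 h to 89 in xrOvaries at day 20. These values are those the choice used, and 6 genes were at 10 TPM or more in the xrOvary at day 20 alone. For the 76 genes with a mean of 10 TPM or more over all libraries the sum was 2569 and 2521 TPM at day 20, 2325 and 2523 TPM in sorted IWR1 cells at 96 h and 1838 and 2021 TPM at day 70. Of these 76, 69 were at 10 TPM or more at day 20, and the highest number was 74, in SOX17 LSE aggregates at 24 h. Of the 109 genes, 45 (41.3%) had their highest condition mean in an xrOvary and 30 of these at day 20, and the share of all 7766 genes at 10 TPM or more in some condition was 18.6% for any xrOvary and 9.10% for day 20. After median-ratio scaling the shares for any xrOvary were 45.0% of the ZNF genes and 25.0% of the 7766, and after quantile normalization 50.5% and 28.9%. For the 76 genes with a mean of 10 TPM or more over all libraries, a mean that high conditions can still carry, as for ZNF596, the share highest in an xrOvary was 31.6% and at day 20 it was 15.8%, against 27.5% of the 109. The lowest condition mean fell in cjESCs in PESFA for 21 genes (19.3%, beside 10.1% of the 7766) and in xrOvaries at day 70 for 22. For any xrOvary the share lowest was 23.9% of the ZNF genes and 36.6% of the 7766.

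**Figure D1:**
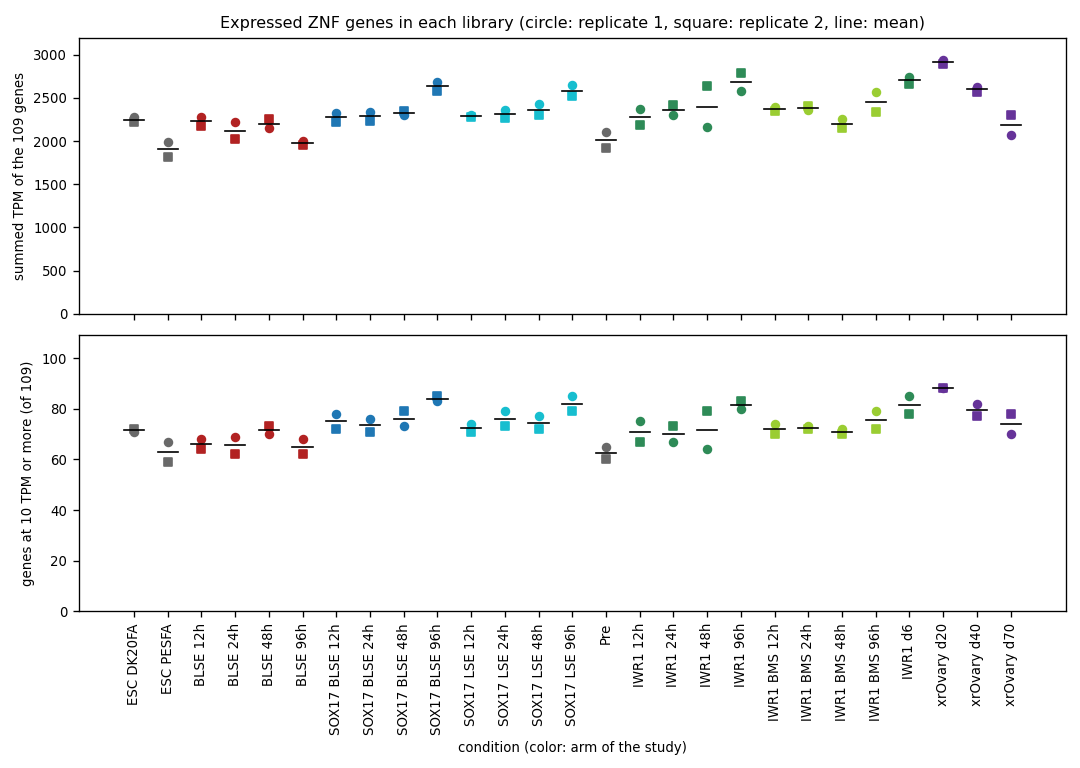
Summed TPM of the 109 ZNF genes (top) and number of them at 10 TPM or more (bottom) in each of the 54 libraries; circles are replicate 1, squares replicate 2 and lines their mean, with colors for the arms. The sum runs from 1817 TPM in a PESFA library to 2935 TPM in an xrOvary library at day 20.

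In 12 comparisons of 2 conditions, 87 of the 109 genes were called at least once: 36 only higher, 17 only lower and 34 higher in some and lower in others. These 87 are 79.8%, beside 78.8% of all genes tested and 87.4% of the genes at 10 TPM or more in some condition. The other 22 were called in none, with ranges of condition means from 0.75 to 2.38 log2 units. These 22 are ZNF24, ZNF189, ZNF212, ZNF256, ZNF267, ZNF275, ZNF281, ZNF367, ZNF407, ZNF449, ZNF480, ZNF507, ZNF551, ZNF580, ZNF581, ZNF598, ZNF606, ZNF668, ZNF689, ZNF772, ZNF776 and ZNF786, listed here after their values were seen. A test of the difference between the routes makes 13 comparisons in all.

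Between starting cells, 2 of the 109 genes were higher in PESFA than in DK20FA and 10 were lower, while 8.09% of all genes tested were higher and 8.73% lower. Median-ratio scaling gave 4 higher and 9 lower, and quantile normalization 2 and 16. The total of 12 became 5 without DK20FA replicate 1 and 3 without PESFA replicate 2, of which 2 were higher and 1 lower. The 2 higher genes were ZNF503, described with the cofactors further on, and ZNF771, which was 13.7 and 16.2 TPM in DK20FA and 30.8 and 37.2 TPM in PESFA, a log2 fold change of 1.13 (SE 0.21, adjusted p = 0.000115). Their replicates do not overlap. The 10 lower were ZNF136, ZNF184, ZNF326, ZNF543, ZNF564, ZNF593, ZNF672, ZNF699, ZNF711 and ZNF823, listed in full after their values were seen. ZNF564 was 4.89 and 5.24 TPM in DK20FA and 2.12 and 1.01 TPM in PESFA, with a log2 fold change of -1.28 (SE 0.27, adjusted p = 0.000402) that became -0.96 without PESFA replicate 2 and was then not called. Of 8 stromal or feeder genes, all in the table, 7 were called higher in PESFA, and their summed level was 587 and 978 TPM in DK20FA against 4132 and 3499 TPM in PESFA. By mean VIM was the most abundant, at 1212 and 1817 TPM in PESFA, COL1A1 was 1598 and 878 TPM there, and none of the 8 was at 0 in both libraries. Feeder cells were of mouse, and whether reads of mouse RNA add to these values cannot be told from the table. Of the other cell type markers PRDM14 was called higher, and SOX17, TFAP2C, DAZL and KRT19 lower. The part of feeder cells and of these markers in the result was not tested.

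Pre-treatment with IM12 and activin A for 24 h gave no called ZNF gene against cjESCs in PESFA: by limma 0 were higher and 0 lower, where 0.0893% and 0.214% of all genes tested were. At an unadjusted p under 0.05 there were 7 higher and 3 lower, and the smallest adjusted p was 0.0275, for ZNF593, which was 99.2 and 80.7 TPM in cjESCs and 158 and 133 TPM after pre-treatment. The stromal genes summed to 2968 and 5399 TPM in the pre-treated cells.

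BLSE alone for 96 h, in all cells, left 9 of the 109 genes higher and 16 lower than in cjESCs in DK20FA, beside 12.4% and 17.1% of all genes tested. The total of 25 was 14 without DK20FA replicate 1, with 4 higher and 10 lower, and 15 without BLSE 96 h replicate 2, with 6 and 9. ZNF750, a transcription factor of keratinocyte differentiation, was 0.270 and 0.240 TPM in cjESCs and 14.3 and 19.6 TPM here, the only condition in which it reached 10 TPM. ZNF316 was 1.80 and 2.25 TPM in cjESCs and 7.78 and 12.2 TPM here, a log2 fold change of 1.84. At 48 h ZNF750 was at 5.06 and 2.64 TPM and ZNF316 at 10.1 and 10.4 TPM, above both cjESC libraries. ZNF699, a KRAB zinc-finger gene, fell from 25.7 and 20.7 TPM to 5.45 and 4.25 TPM, a log2 fold change of -2.05 (SE 0.24, adjusted p = 1.16e-08). ZNF697 fell from 73.1 and 68.8 TPM to 21.0 and 25.7 TPM, a log2 fold change of -1.57 (SE 0.22, adjusted p = 3.50e-07). In these unsorted cells the 8 stromal genes summed to 3754 and 2923 TPM, led by VIM at 1924 and 1763 TPM, with DCN at 1703 and 1054 TPM and none at 0. Of the 8, DCN, LUM and VIM were called higher than in cjESCs in DK20FA, and COL1A1, COL1A2 and THY1 lower. Of the other cell type markers POU5F1, NANOG, SOX2, PRDM14, DPPA4, TDGF1, PDPN and DAZL were called lower. Their part in the result was not tested.

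With SOX17 switched on in BLSE, sorted cells at 96 h had 37 genes higher and 8 lower than cjESCs in DK20FA, beside 25.6% and 17.6% of all genes tested. Against all genes at 10 TPM or more in some condition, the members called higher were 33.9% beside 30.0%, and lower 7.34% beside 21.8%. Of the 76 genes with a mean of 10 TPM or more over all libraries, 21 (27.6%) were higher and 8 (10.5%) lower. The split was 25 higher and 12 lower after median-ratio scaling and 31 and 13 after quantile normalization. The median log2 fold change of the ZNF genes was 0.38 and that of all genes 0.14, and median-ratio scaling took the latter to 0 and the former to 0.20. Relative to all genes the median was thus 0.23 before and 0.20 after that scaling. The 37 and 8 became 22 and 7 without DK20FA replicate 2, 24 and 6 without SOX17 BLSE 96 h replicate 1 and 23 and 6 without its replicate 2. Without DK20FA replicate 1 there were 27 and 5. ZNF316 was 1.80 and 2.25 TPM in cjESCs and 21.8 and 17.3 TPM in the sorted cells, a log2 fold change of 2.76. ZNF428 went from 52.7 and 48.3 TPM to 171 and 119 TPM, a rise of 1.49 (SE 0.14, adjusted p = 1.64e-11). ZNF671, a KRAB gene, was 6.50 and 6.72 TPM before and 18.0 and 19.3 TPM after, 1.37 higher in log2. In all 3 genes both sorted libraries lie above both starting libraries. ZNF697 fell to 16.6 and 18.2 TPM, a log2 fold change of -1.97 (SE 0.22, adjusted p = 2.15e-09). ZNF22 fell from 72.7 and 66.5 TPM to 30.2 and 28.6 TPM, -1.22 in log2 (SE 0.16, adjusted p = 8.61e-08). ZNF823 reached 7.84 and 5.54 TPM from 15.8 and 16.1 TPM, -1.16 in log2 (SE 0.22, adjusted p = 3.87e-05). Without BMP4, SOX17 LSE cells sorted at 96 h, which were not tested against cjESCs, had ZNF316 at 11.9 and 14.0 TPM and ZNF428 at 164 and 142 TPM. Of the 8 stromal genes 6 were called lower in the sorted SOX17 BLSE cells, where the 8 summed to 113 and 99.0 TPM, led by VIM at 68.4 and 59.7 TPM and with COL3A1 at 0. All 6 early germ cell genes, POU5F1, NANOG and MAEL were called higher, and SOX2, PRDM14, DPPA4, LIN28A, TDGF1, DAZL and KRT19 lower. Their part in the result was not tested.

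At 48 h, where all cells were taken, SOX17 in BLSE was set against BLSE alone, so that SOX17 and dexamethasone differ together. Of the 109 genes 5 were higher (ZNF48, ZNF177, ZNF296, ZNF317 and ZNF699) and 3 lower (ZNF22, ZNF503 and ZNF703), beside 10.3% and 6.37% of all genes tested. ZNF317 is named here after its values were seen. Median-ratio scaling and quantile normalization each gave 5 higher and 6 lower. The total of 8 was 3 without BLSE 48 h replicate 1, 3 without its replicate 2 and 4 without SOX17 BLSE 48 h replicate 2. ZNF177 was 14.2 and 17.0 TPM in BLSE and 39.3 and 40.5 TPM with SOX17, 1.31 higher in log2 (SE 0.28, adjusted p = 0.000568), and the adjusted p was 0.0146 without BLSE 48 h replicate 1. ZNF48 was not called without BLSE 48 h replicate 1 (0.50), nor ZNF699 (1.02), and without BLSE 48 h replicate 2 neither ZNF22 (-0.63) nor ZNF503 (-0.92) was. In the same comparison all 6 early germ cell genes and 4 of 7 pluripotency genes were called higher, and LIN28A, VIM, COL1A2 and KRT19 lower. Their part in the result was not tested.

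BMP4 was the difference between SOX17 BLSE and SOX17 LSE at 48 h, again in all cells. With BMP4, 4 genes were higher (ZNF316, ZNF436, ZNF524 and ZNF750) and 0 lower, beside 4.61% and 3.40% of all genes tested. At an unadjusted p under 0.05 limma gave 8 higher and 6 lower, and quantile normalization 4 higher and 1 lower. The total of 4 was 2 without SOX17 BLSE 48 h replicate 1, 1 without its replicate 2 and 1 without SOX17 LSE 48 h replicate 2. ZNF750 was 0.760 and 0.770 TPM without BMP4 and 5.77 and 6.34 TPM with it, 2.0 higher in log2 (SE 0.30, adjusted p = 7.78e-06). Without SOX17 LSE 48 h replicate 2 the log2 fold change was 0.88 for ZNF316 and 1.24 for ZNF524, and neither was called. ZNF436 was at 10 TPM or more only in SOX17 BLSE at 48 h and the xrOvary at day 40, so nothing is read from its call. With BMP4 4 of 6 early germ cell genes and POU5F1 were called higher, and 4 pluripotency genes and THY1 lower, and their part in the result was not tested. At 96 h, in sorted cells, ZNF750 was 3.21 and 8.32 TPM with BMP4 and 0.630 and 0.250 TPM without.

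In the arm with IWR1, aggregates at 48 h were compared with BLSE aggregates of the other arm, so that line, medium, pre-treatment and IWR1 differ together and cannot be told apart. Of the 109 genes 9 were higher and 4 lower (ZNF503, ZNF521, ZNF672 and ZNF703), beside 11.2% and 10% of all genes tested. The total of 13 became 8 without BLSE 48 h replicate 2. The split turned with the IWR1 libraries, to 13 higher and 3 lower without IWR1 48 h replicate 1 and to 5 higher and 8 lower without its replicate 2. ZNF596 was 2.36 and 2.18 TPM in BLSE and 6.41 and 8.02 TPM with IWR1, 1.32 higher in log2 (SE 0.27, adjusted p = 0.000198). ZNF395 was 6.34 and 7.01 TPM against 16.9 and 16.7 TPM, 1.22 higher (SE 0.22, adjusted p = 4.80e-05). Both were apart in all 4 libraries. Of the pluripotency genes 5 were called higher, of the early germ cell genes NANOS3 and PDPN higher and SOX17 and TFAP2C lower, of the stromal genes THY1 higher and DCN, COL1A2 and VIM lower. KRT19 was called lower as well. Their part in the result was not tested. Adding BMS493 for 48 h gave 2 genes higher (ZNF521 and ZNF703) and 1 lower (ZNF511) than IWR1 alone, beside 2.87% and 1.96% of all genes tested. Median-ratio scaling turned this into 1 higher and 2 lower, and quantile normalization into 1 and 3. The split was 1 and 3 without IWR1 48 h replicate 1 and 3 and 0 without its replicate 2, and the total of 3 was 0 without BMS493 48 h replicate 1 and 1 without its replicate 2, so none of the 3 calls is described as a change. With BMS493 POU5F1, NANOG, SOX2, TDGF1 and PDPN were called lower and SOX17, PRDM1, LUM and VIM higher, and their part in the result was not tested.

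Sorted IWR1 cells at 96 h, compared with pre-treated cells, had 43 genes higher and 5 lower, beside 22.7% and 17.4% of all genes tested. Among genes at 10 TPM or more in some condition the shares were 39.4% of the ZNF genes and 27.4% of all for higher, and 4.59% and 20.4% for lower. Of the 76 genes with a mean of 10 TPM or more, 30 (39.5%) were higher and 4 (5.26%) lower. Median-ratio scaling gave 36 higher and 11 lower. The 43 and 5 became 28 and 6 without pre-treated replicate 2, 30 and 6 without IWR1 96 h replicate 2 and 40 and 3 without pre-treated replicate 1. The median log2 fold change was 0.49 for the ZNF genes and 0.14 for all genes, and after median-ratio scaling 0.32 and -0.04, a difference of 0.35 under both. ZNF316 was 1.43 and 2.18 TPM in pre-treated cells and 13.8 and 15.9 TPM in sorted IWR1 cells, a log2 fold change of 2.51. ZNF596, which encodes a KRAB zinc-finger protein, was 5.31 and 5.40 TPM before and 26.4 and 21.3 TPM after, a log2 fold change of 1.96. ZNF428 climbed from 56.0 and 49.2 TPM to 177 and 167 TPM, up by 1.69 (SE 0.14, adjusted p = 7.95e-13). None of these 3 genes has overlapping replicates. The 5 lower genes were ZNF22, ZNF326, ZNF503, ZNF697 and ZNF703. ZNF697 fell from 46.9 and 43.3 TPM to 10.2 and 15.8 TPM, -1.75 in log2 (SE 0.22, adjusted p = 3.27e-08). Of the 8 stromal genes 7 were called lower, with a sum of 2968 and 5399 TPM in pre-treated cells, led by COL1A1, and of 299 and 348 TPM in sorted IWR1 cells, led by VIM at 229 and 259 TPM, with none at 0 in both libraries. All 6 early germ cell genes, POU5F1, MAEL and SYCE3 were called higher, and SOX2, PRDM14, DPPA4, LIN28A, TDGF1, DAZL and KRT19 lower. Their part in the result was not tested.

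Day 6 IWR1 cells against cjESCs in PESFA gave the highest count, with 46 genes higher and 9 lower, beside 24.9% and 20.0% of all genes tested. Of the ZNF genes 42.2% were higher and of all genes at 10 TPM or more 30.4%, and lower were 8.26% and 23.0%. Of the 76 genes with a mean of 10 TPM or more, 30 (39.5%) were higher and 8 (10.5%) lower. Median-ratio scaling gave 39 higher and 14 lower. Without PESFA replicate 2 there were 32 and 7, and without PESFA replicate 1 there were 45 and 5. The median log2 fold change was 0.57 for the ZNF genes and 0.11 for all genes, and 0.37 and -0.06 after that scaling. ZNF428 was 45.8 and 44.4 TPM in cjESCs and 235 and 242 TPM at day 6, a rise of 2.38 in log2 (SE 0.14, adjusted p = 4.94e-17). ZNF596 was 5.10 and 2.55 TPM in cjESCs and 31.2 and 31.7 TPM at day 6, a log2 fold change of 2.80. ZNF490, a KRAB zinc-finger gene, rose from 0.440 and 0.520 TPM to 6.26 and 7.33 TPM, by 2.39 (SE 0.36, adjusted p = 6.58e-07). All 3 genes were also above their cjESC values in both xrOvary libraries of day 20. ZNF564, which stands next to ZNF490 in the gene order of the assembly calJac240_pri, was 2.12 and 1.01 TPM in cjESCs and 13.7 and 8.63 TPM at day 6. The 9 lower genes were ZNF22, ZNF326, ZNF330, ZNF395, ZNF503, ZNF622, ZNF697, ZNF703 and ZNF740, listed in full after their values were seen. This comparison shares the IWR1 arm but no library with that at 96 h. All 8 stromal genes were called lower and summed to 237 and 228 TPM at day 6, led by VIM at 194 and 184 TPM, with none at 0 in both libraries. All 6 early germ cell genes, POU5F1 and NANOG were called higher, and the other 5 pluripotency genes and KRT19 lower. The part of these markers in the result was not tested.

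**Figure D2:**
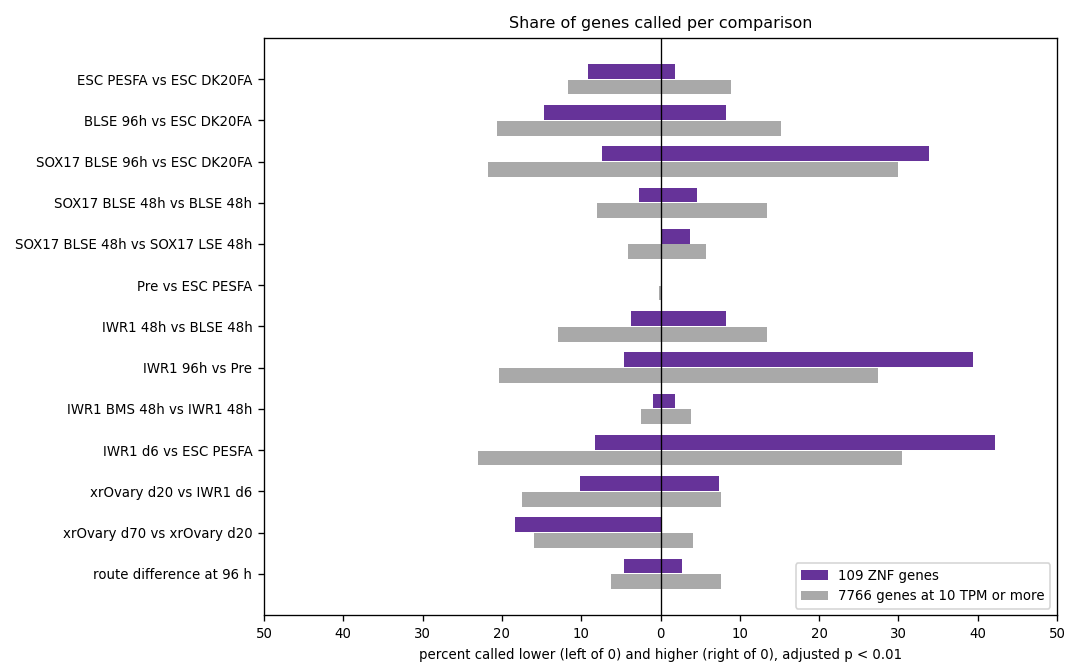
Percent of genes called higher (right of 0) and lower (left of 0) at an adjusted p under 0.01 in each comparison, for the 109 ZNF genes (purple) and for all 7766 genes at 10 TPM or more in some condition (grey). The share of ZNF genes is under the grey share in 12 of 13 comparisons for lower and in 10 of 13 for higher.

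In xrOvaries at day 20, 8 genes were higher and 11 lower than in day 6 cells, beside 6.56% and 13.8% of all genes tested. The split was 10 and 9 after median-ratio scaling and 15 and 8 after quantile normalization, which moved the median of all genes from -0.08 to 0.05. The 8 and 11 became 5 and 5 without day 6 replicate 1, 6 and 5 without day 6 replicate 2, 7 and 5 without day 20 replicate 2 and 6 and 11 without its replicate 1. Day 20 replicate 2 lists 10146 genes above 0, the fewest of the 54 libraries, and replicate 1 lists 11441. VIM and MAEL were called higher in this comparison and DCN, COL1A2, THY1, NANOS3, KIT, PDPN, POU5F1, TDGF1 and KRT19 lower, and their part in the result was not tested. ZNF579 fell from 14.7 and 17.4 TPM to 1.70 and 0.970 TPM, a log2 fold change of -2.88 (SE 0.23, adjusted p = 1.98e-12). It was 12.7 TPM or more in every library before the xrOvary and 0.370 and 0.120 TPM at day 70. ZNF582, a KRAB gene, was 1.77 and 1.33 TPM at day 6 and 6.81 and 14.1 TPM at day 20, with a wide gap between the day 20 replicates. ZNF490 was 29.1 and 28.4 TPM at day 20. ZNF488, a cofactor of oligodendrocyte differentiation, was 1.80 and 2.57 TPM at day 6 and 8.62 and 13.7 TPM at day 20. ZNF582 and ZNF488 reached 10 TPM in the xrOvary at day 20 alone, and ZNF490 in the xrOvaries alone. ZNF205 fell from 17.2 and 18.3 TPM to 8.08 and 8.10 TPM, -1.04 in log2 (SE 0.18, adjusted p = 1.48e-05).

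From day 20 to day 70 in the xrOvaries, 0 genes were higher and 20 lower, beside 3.89% and 12.2% of all genes tested. At an unadjusted p under 0.05 limma gave 1 higher and 47 lower. Under median-ratio scaling 1 was higher and 14 lower, and under quantile normalization 1 and 10. The median log2 fold change was -0.40 for the ZNF genes and -0.13 for all genes, and -0.22 and 0 after median-ratio scaling, so the ZNF median lay 0.27 below that of all genes before, 0.22 below it after that scaling and 0.15 below it after quantile normalization. The total of 20 was 13 without day 20 replicate 2, 13 without day 70 replicate 1 and 13 without day 70 replicate 2. ZNF48 fell from 76.5 and 95.8 TPM to 26.6 and 30.5 TPM, -1.55 in log2 (SE 0.13, adjusted p = 1.49e-11). It had been 111 and 126 TPM in sorted IWR1 cells at 96 h, against 40.4 and 49.0 TPM in pre-treated cells. ZNF784 was 15.5 and 12.8 TPM at day 20 and 2.89 and 4.34 TPM at day 70, -1.73 in log2. ZNF488 was 2.85 and 3.94 TPM at day 70. At day 40, which was not tested, ZNF48 was 53.5 and 51.2 TPM, and ZNF488 6.25 and 6.43 TPM. The 8 stromal genes summed to 651 and 716 TPM at day 20 and 125 and 153 TPM at day 70, almost all of it VIM (638 and 707, then 123 and 151 TPM), with DCN and LUM at 0 in both libraries of each day. The late germ cell genes DAZL, DDX4, MAEL and PIWIL2 were called higher at day 70, and VIM, THY1, PDPN and KRT19 lower, and their part in the result was not tested.

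**Figure D3:**
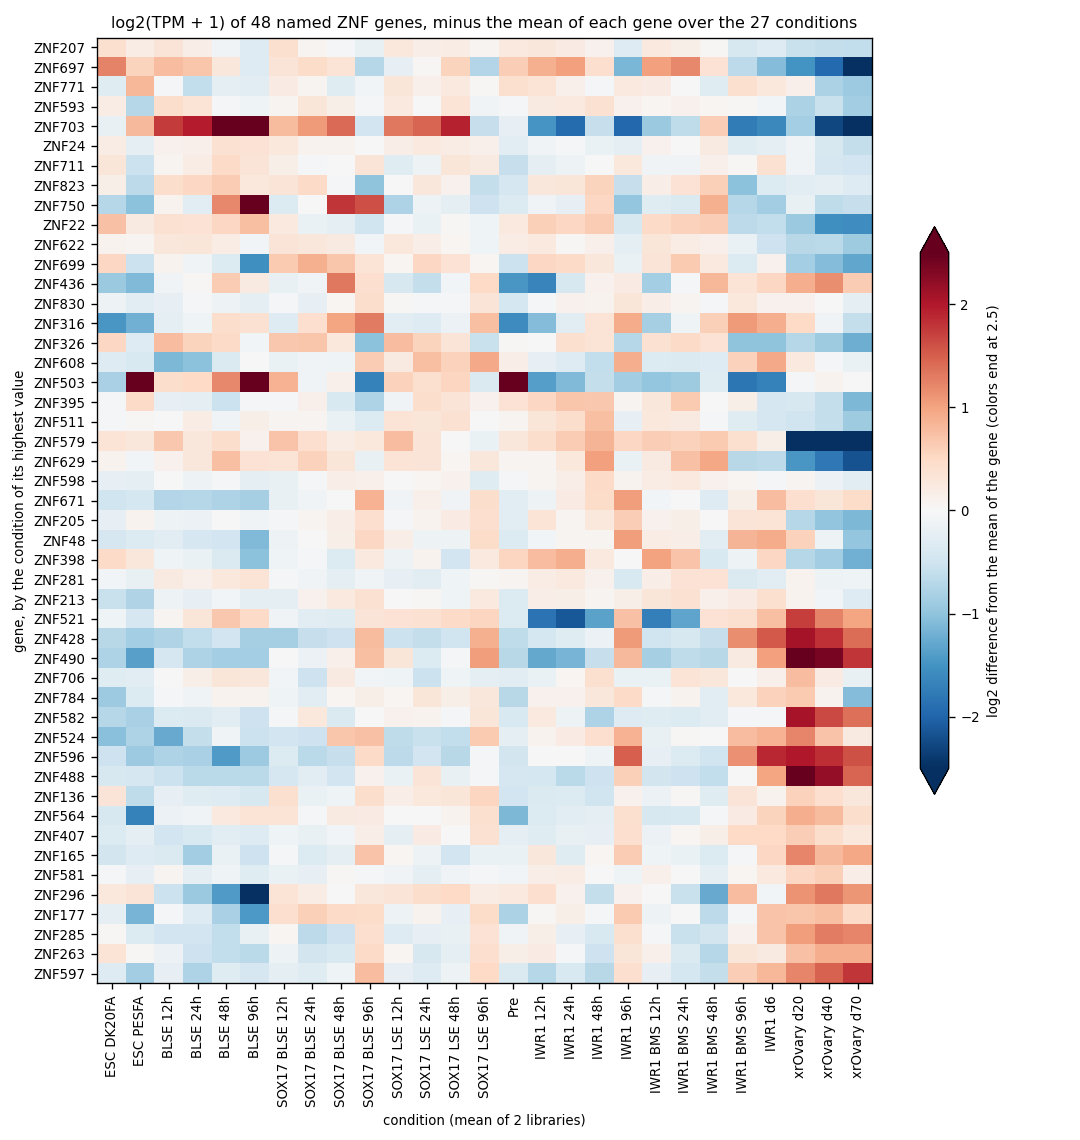
Mean log2(TPM + 1) of 48 named ZNF genes in the 27 conditions, minus the mean of each gene, with genes ordered by the condition of their highest value and colors ending at 2.5. ZNF703, ZNF503 and ZNF750 are high in BLSE at 96 h, and ZNF490, ZNF582 and ZNF488 are high in the xrOvaries, where ZNF579 is low.

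The 2 routes to sorted cells at 96 h were compared with each other by testing the difference of their changes, SOX17 BLSE against cjESCs in DK20FA and IWR1 against cjESCs in PESFA. For 3 genes the SOX17 route was higher and for 5 lower, beside 6.87% and 4.53% of all genes tested. The total of 8 was 4 without DK20FA replicate 1, 3 without PESFA replicate 2 and 5 without SOX17 BLSE 96 h replicate 2. The split was 3 and 0 without PESFA replicate 2 and 3 and 7 without its replicate 1. Among the 8, the log2 fold change of ZNF750 was 2.32 with SOX17 and 0.08 with IWR1, a difference of 2.24 (SE 0.43, adjusted p = 0.000202). It was 3.21 and 8.32 TPM in the sorted SOX17 cells, 0.110 and 0 TPM in the sorted IWR1 cells, and listed at 0 in both PESFA libraries. This difference was not called with a pseudocount of 0.1, under which 1 gene was higher and 4 were lower. The same test called 4 of the 8 stromal genes higher in the SOX17 route (COL1A1, COL3A1, LUM and THY1), whose sums are given above for the 4 conditions, PDPN higher as well, and SOX17 and KRT19 lower, and their part in the result was not tested. Set against their own starting points, which share no library (DK20FA cells and pre-treated cells), 29 ZNF genes were higher in both routes, 78.4% of the 37 and 67.4% of the 43. Over all genes tested 1745 were higher in both, 60.8% of those of the SOX17 route and 68.5% of those of the IWR1 route. Lower in both were 3 ZNF genes, ZNF22, ZNF326 and ZNF697, which are 37.5% of the 8 and 60.0% of the 5, where over all genes tested 1226 were, 62.2% and 63.0%. Of the 3, ZNF22 (-0.47) and ZNF326 (-0.52) were not called in the IWR1 route without pre-treated replicate 1.

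By role, 3 of the 109 genes are cofactors that bind SMAD proteins or the TLE corepressors: ZNF703 and ZNF503, sister genes of the NET family, and ZNF521, a cofactor of BMP signalling. ZNF703 was 10.6 and 9.28 TPM in cjESCs in DK20FA, 33.7 and 49.6 TPM after 12 h in BLSE, 77.8 and 78.8 TPM at 48 h and 72.4 and 70.7 TPM at 96 h. At 96 h it had risen by 2.73 in log2 (SE 0.29, adjusted p = 9.47e-10). With SOX17 it was 34.9 and 29.5 TPM at 48 h and 7.43 and 8.41 TPM in the sorted cells at 96 h. The gene was thus high in BLSE aggregates, lower with SOX17 and near its starting level in sorted cells. At 48 h its log2 fold change with SOX17 was -1.26 (SE 0.29, adjusted p = 0.00119), with adjusted p of 0.0115 without BLSE 48 h replicate 1, 0.0147 without its replicate 2 and 0.0253 without SOX17 BLSE 48 h replicate 2. In the IWR1 arm it was 7.84 and 6.80 TPM at 48 h, a log2 fold change of -3.26 against BLSE (SE 0.29, adjusted p = 7.58e-11). It fell further, to 2.65 and 1.79 TPM in sorted IWR1 cells from 7.40 and 12.7 TPM in pre-treated cells, -1.75 in log2 (SE 0.29, adjusted p = 5.25e-06). From day 20 to day 70 of the xrOvary it fell from 8.18 and 4.16 TPM to 0.790 and 0.620 TPM, -2.01 in log2 (SE 0.29, adjusted p = 1.50e-06).

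ZNF503 was 1.13 and 1.74 TPM in cjESCs in DK20FA but 33.0 and 17.4 TPM in PESFA. It stayed at 19.6 and 37.7 TPM in pre-treated cells and was 0.410 and 0.910 TPM after 12 h with IWR1. Over the same 12 h, in which sorted cells became aggregates taken whole, the sum of the stromal genes went from 2968 and 5399 TPM to 480 and 377 TPM, and their part in the result was not tested. At 96 h with IWR1 the gene was 1.21 and 1.42 TPM. In BLSE it was 24.6 and 23.9 TPM at 96 h, and in sorted SOX17 cells it was 0.500 and 0.150 TPM. BLSE at 96 h, cjESCs in PESFA and pre-treated cells are the 3 conditions that selected this gene. It rose from 0.440 and 0.200 TPM at day 6 to 4.35 and 2.13 TPM at day 20 of the xrOvary, by 1.64 (SE 0.29, adjusted p = 3.79e-05). For ZNF703 the 2 routes differed by 2.47 (SE 0.41, adjusted p = 3.07e-05). ZNF521 was 14.5 and 14.7 TPM in BLSE at 48 h and 2.90 and 2.90 TPM with IWR1, -2.00 in log2 (SE 0.32, adjusted p = 5.62e-06). With BMS493 it was 14.8 and 9.08 TPM at that time, and its call against IWR1 alone was lost without BMS493 48 h replicate 1, where the log2 fold change was 1.37. It was highest in the xrOvary at day 20, with 29.4 and 34.0 TPM.

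**Figure D4:**
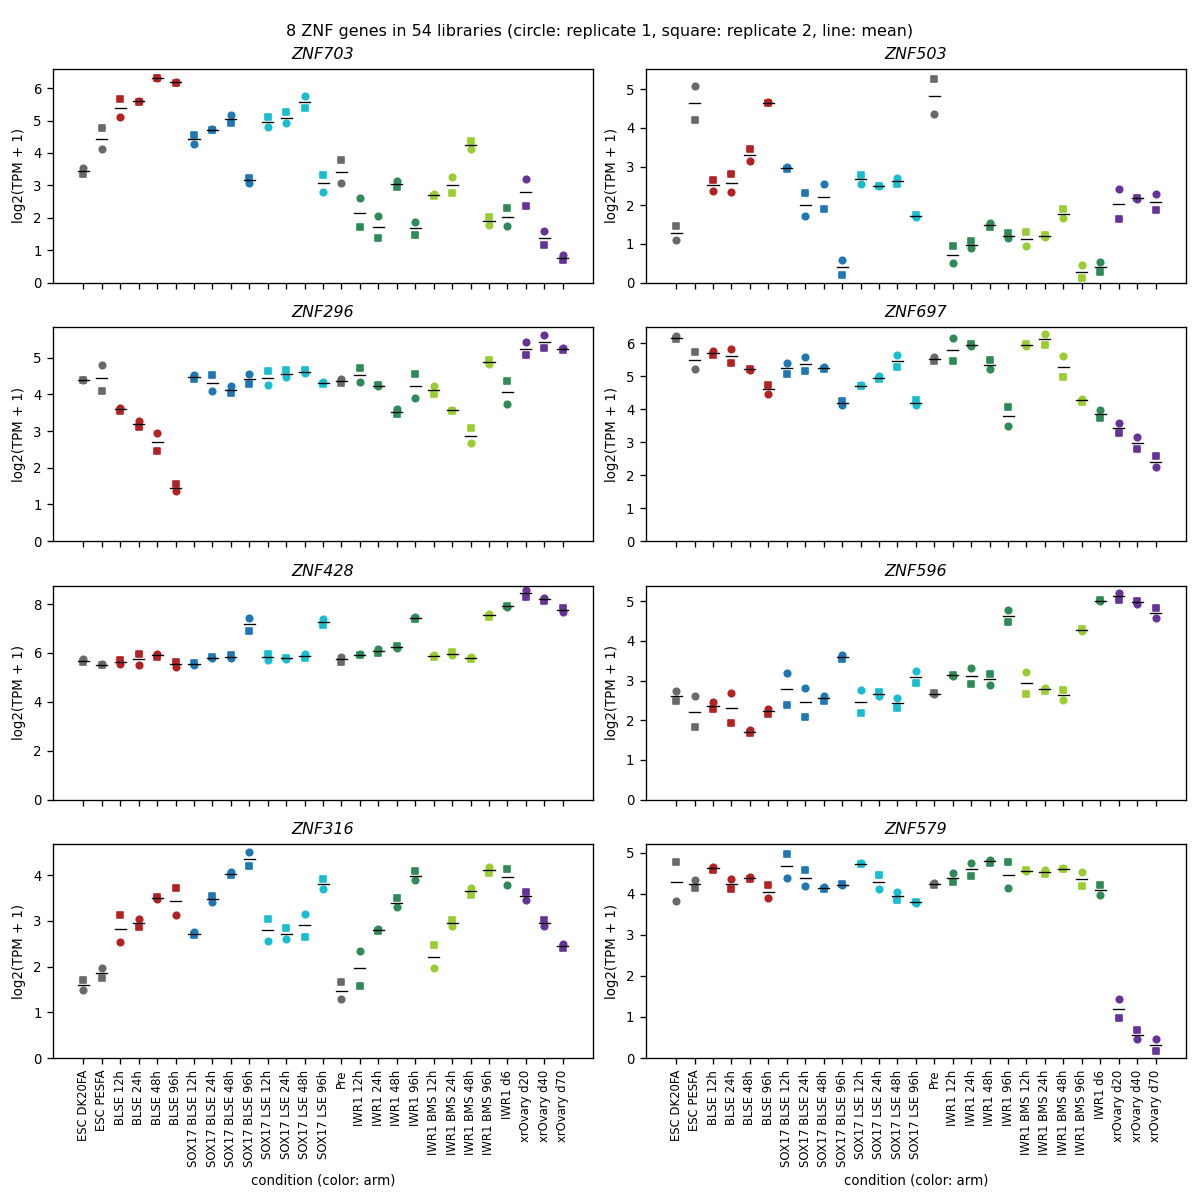
log2(TPM + 1) of 8 ZNF genes in each of the 54 libraries; circles are replicate 1, squares replicate 2 and lines their mean, with colors for the arms. ZNF703 and ZNF503 are higher in BLSE at 96 h than in cjESCs in DK20FA, while ZNF296 is lower. ZNF428 is high in sorted cells and xrOvaries, and ZNF579 is low in the xrOvaries. ZNF596 is high in sorted IWR1 cells at 96 h, in day 6 cells and in the xrOvary at day 20.

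Of 7 ZNF genes listed for their links to pluripotency, 5 were among the 109. ZNF296, which works with reprogramming factors and in heterochromatin of stem cells, was 19.9 and 19.8 TPM in cjESCs in DK20FA, 11.4 and 10.6 TPM after 12 h in BLSE, 8.65 and 7.67 TPM at 24 h, 6.67 and 4.51 TPM at 48 h and 1.59 and 1.92 TPM at 96 h. The fall by 96 h was -2.92 in log2 (SE 0.23, adjusted p = 3.90e-13), with lower values at each later time. With SOX17 the gene held at 17.7 and 15.3 TPM at 48 h, 1.43 above BLSE in log2 (SE 0.23, adjusted p = 8.02e-06), and was 22.4 and 18.3 TPM in sorted cells at 96 h. It was 41.6 and 32.9 TPM in the xrOvary at day 20, 1.20 above day 6 (SE 0.23, adjusted p = 8.53e-05), a call lost without day 6 replicate 1, where the log2 fold change was 0.87. ZNF398, a KRAB protein that acts with SMAD3 in pluripotent cells, fell in BLSE from 41.6 and 38.7 TPM to 14.9 and 12.3 TPM at 96 h, -1.50 in log2 (SE 0.20, adjusted p = 1.05e-07). It also fell from 46.7 and 36.9 TPM at day 6 to 16.9 and 17.3 TPM at day 20, -1.23 in log2 (SE 0.20, adjusted p = 8.06e-06). Of the 7 pluripotency genes 6 were called lower in BLSE at 96 h, and POU5F1 and TDGF1 at day 20, and their part in the result was not tested. ZNF281, a partner of NANOG, stayed between 33.9 and 67.1 TPM in all libraries and was called in no comparison. ZNF207, a spindle assembly factor that also acts in stem cells, ranged from 26.2 to 72.0 TPM, and its calls were lost without 1 of several libraries, among them DK20FA replicate 1, where its log2 fold change was -0.46 in BLSE and -0.32 with SOX17 at 96 h. ZNF706, which restrains self-renewal, was 40.7 and 61.9 TPM at day 20 and 27.5 and 23.3 TPM at day 70, a call lost without day 20 replicate 2 (-0.66), day 70 replicate 1 (-1.07) or day 70 replicate 2 (-0.85).

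In protein synthesis, 3 of 3 listed genes are among the 109 and all 3 among the 4 most abundant by mean over all libraries. ZNF593, which takes part in export of the large ribosomal subunit, was 173 and 163 TPM in cjESCs in DK20FA and 99.2 and 80.7 TPM in PESFA, -0.90 in log2 (SE 0.17, adjusted p = 8.32e-05). It was 134 and 148 TPM at day 6 and 109 and 65.5 TPM at day 20, with adjusted p = 0.000944 for that step, and the log2 fold change was not called without day 20 replicate 2 (-0.36) or day 6 replicate 2 (-0.65). ZNF622, a late factor of the large subunit, went from 71.8 and 83.3 TPM in cjESCs in PESFA to 48.5 and 53.3 TPM at day 6, with a log2 fold change of -0.60 (SE 0.15, adjusted p = 0.000721) that was not called without PESFA replicate 2 (-0.49) or day 6 replicate 1 (-0.53). ZNF598, the ubiquitin ligase that senses collided ribosomes, lay between 56.1 and 128 TPM and was called in no comparison. The log2 range of condition means was 1.31, 1.20 and 0.77 for the 3 genes, each below the median of the 109.

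In RNA processing, 2 of 5 listed genes are members. ZNF326, a subunit of the DBIRD complex that links transcription to splicing, was 32.5 and 28.4 TPM in cjESCs in DK20FA and 8.08 and 11.6 TPM in sorted SOX17 cells, -1.55 in log2 (SE 0.20, adjusted p = 2.61e-08). In BLSE aggregates at 48 h it was 28.6 and 30.3 TPM and in SOX17 aggregates of that time 26.4 and 24.2 TPM. Its condition means are lowest in the sorted cells at 96 h, day 6 cells and xrOvaries. ZNF830, a pre-mRNA splicing factor, was 35.0 and 31.2 TPM in pre-treated cells and 59.6 and 52.6 TPM in sorted IWR1 cells, 0.74 higher in log2 (SE 0.14, adjusted p = 2.40e-05).

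Among 13 listed genes of promoters and chromatin, 2 are members. ZNF608 rose from 12.2 and 8.77 TPM in cjESCs in PESFA to 26.7 and 28.3 TPM at day 6, by 1.33 in log2 (SE 0.22, adjusted p = 4.06e-06), and was 17.4 and 15.6 TPM at day 20. ZNF711, a partner of the histone demethylase PHF8, was 6.28 and 5.64 TPM in cjESCs in PESFA and 10.9 and 13.3 TPM at day 6. Its log2 fold change of 0.91 was not called without PESFA replicate 2 (0.84) or day 6 replicate 2 (0.77). ZNF597, an imprinted gene and 1 of 2 listed as such, was low in starting cells, at 1.07 and 1.70 TPM in PESFA. It rose to 6.87 and 6.47 TPM at day 6, by 1.70 (SE 0.30, adjusted p = 7.98e-06), and reached 12.1 and 16.0 TPM in xrOvaries at day 70, its highest condition. Of 7 SCAN-domain genes listed, 3 are members. ZNF263 fell in BLSE from 34.3 and 45.7 TPM to 21.8 and 16.6 TPM at 96 h, -1.02 in log2 (SE 0.13, adjusted p = 8.27e-08), and was 57.7 and 60.1 TPM in xrOvaries at day 70. ZNF165, known as a testis antigen, was highest at day 20 with 13.9 and 19.4 TPM, and ZNF24 was called in no comparison and lay between 18.1 and 42.5 TPM. None of the 8 listed KRAB genes with known retroelement or imprint targets is among the 109: 4 are in the table, 3 were tested, and the highest of them here was ZNF274 with 7.22 and 6.91 TPM in sorted SOX17 cells.

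The machinery that KRAB proteins recruit was read from a list of 22 genes, 21 of them in the table and 19 tested. Of the 21, 16 reached 10 TPM in some condition and 11 reached 100 TPM. TRIM28, the common corepressor, was 1373 and 1313 TPM in cjESCs in DK20FA, 657 and 672 TPM in BLSE at 96 h and 1181 and 1082 TPM in sorted SOX17 cells. Its fall in BLSE was -1.01 in log2 (SE 0.09, adjusted p = 9.91e-12). In sorted SOX17 cells its change of -0.25 was not called (adjusted p = 0.0194). TRIM28 was called lower in sorted IWR1 cells at 96 h than in pre-treated cells. In BLSE at 96 h, 2 of the 19 were higher and 8 lower, beside 12.4% and 17.1% of all genes. In sorted SOX17 cells 2 were higher and 3 lower, beside 25.6% and 17.6%. In sorted IWR1 cells 6 were higher and 3 lower, beside 22.7% and 17.4%, and at day 6 the counts were 6 and 2, beside 24.9% and 20.0%. With SOX17 at 48 h 2 were higher and 1 lower than in BLSE, beside 10.3% and 6.37%, and with IWR1 at 48 h 1 and 2, beside 11.2% and 10%. By limma 0 were higher and 4 lower in PESFA than in DK20FA (1 and 9 at an unadjusted p under 0.05), beside 8.09% and 8.73%. At day 20 against day 6 limma gave 0 and 3 (3 and 6 at an unadjusted p under 0.05), beside 6.56% and 13.8%, and at day 70 against day 20 it gave 0 and 4 (1 and 8), beside 3.89% and 12.2%. The route difference had 0 and 2 by limma (0 and 7 at an unadjusted p under 0.05), beside 6.87% and 4.53%. For BMP4, pre-treatment and BMS493 limma called 0 in either direction, with 1 higher and 3 lower, 2 and 0, and 3 and 1 at an unadjusted p under 0.05, where 4.61% and 3.40%, 0.0893% and 0.214%, and 2.87% and 1.96% of all genes were called. UHRF1, which brings the maintenance methyltransferase DNMT1 to DNA, fell from 118 and 127 TPM in cjESCs in DK20FA to 16.2 and 16.1 TPM in sorted SOX17 cells, -2.85 in log2 (SE 0.15, adjusted p = 9.66e-18). Its fall to day 6, from 94.9 and 105 TPM to 18.6 and 13.7 TPM, was -2.57 (SE 0.15, adjusted p = 9.72e-17). DNMT1 itself rose to 56.4 and 52.1 TPM at day 6 from 23.5 and 16.4 TPM, by 1.42 (SE 0.17, adjusted p = 9.68e-09). In sorted SOX17 cells its change from DK20FA, 0.46, was not called (adjusted p = 0.0253). The routes at 96 h differed by -1.21 for DNMT1 (SE 0.24, adjusted p = 0.000395). DNMT1 was called lower in PESFA than in DK20FA, and lower at day 20 than at day 6. Its highest condition mean was 168 TPM, in BLSE at 96 h, where it was called higher than in cjESCs in DK20FA. MPHOSPH8, a subunit of the HUSH silencing complex, rose at day 6 from 45.9 and 45.7 TPM to 95.1 and 91.5 TPM, by 1.01 (SE 0.10, adjusted p = 1.63e-10). SETDB1, the methyltransferase of this pathway, was 0.300 and 0.450 TPM in cjESCs in DK20FA, too low for its changes to be read.

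Position in the genome was not used in the choice, but the ZNF symbol was. ZNF genes above and below the limit stood next to another ZNF gene in similar shares. In the order of genes of RefSeq on the assembly calJac240_pri, all 109 were found, and 47 of them (43.1%) stand next to another ZNF gene, as do 52 of 127 matched ZNF genes below the limit (40.9%) and 377 of 14660 genes of the table (2.57%). Of the 47, ZNF319 and ZNF823 are listed there under LOC symbols and were matched by gene number. The longest unbroken run of members is ZNF212, ZNF282, ZNF398, ZNF425 and ZNF786, picked out after its values were seen. Its genes differ: ZNF398 is at 16.9 and 17.3 TPM in the xrOvary at day 20, while ZNF425 is 20.4 and 11.1 TPM there after 2.37 and 2.96 TPM in cjESCs in DK20FA. ZNF212 and ZNF786 were called in no comparison, with libraries of ZNF212 between 13.9 and 31.5 TPM.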

How the data were processed

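The deposited values are TPM per gene and library, made by the authors with STAR and RSEM from poly(A), directional, single-end reads of biologically duplicated samples, and were used as given. They hold no counts, so depth and counting error are unknown. All 54 libraries were mapped to 27 conditions by their labels. In R 4.3.3, limma 3.58.1 was fitted to log2(TPM + 1) with 1 mean per condition, an intensity trend and a two-sided test, over 11197 genes with a value of 1.5 or more in at least 1 library, with Benjamini-Hochberg adjustment over all of them. The fit was tested on simulated data. Lists of roles, corepressor machinery and cell type markers were written from general knowledge. The members and lists were chosen with earlier results of these data known. Named genes are the 10 most abundant members, the 12 with the largest range, the 3 largest rises and falls called per comparison, members of the role lists, the 4 genes on either side of the limit, and the machinery and marker genes. Alternatives were another pseudocount, no filter, median-ratio scaling, quantile normalization, no trend, a replicate block, a fit of only the libraries compared, each library left out, limits of 5 and 20 TPM, and a 4-fold rule.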

Additional observations from a re-analysis of the deposited data

Results flagged for a closer look

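For 8 ZNF genes the change to sorted cells at 96 h differed between the SOX17 route (SOX17 BLSE against cjESCs in DK20FA) and the IWR1 route (IWR1 against cjESCs in PESFA) by the limma test of the difference itself. The log2 difference of the changes was 2.56 for ZNF503, 2.47 for ZNF703 and 2.24 for ZNF750. It was -1.46 for ZNF564, -1.42 for ZNF596, -1.23 for ZNF823, -1.17 for ZNF326 and -1.06 for ZNF593. With SOX17 and with IWR1 in turn, the log2 fold changes were -0.88 and -3.44 for ZNF503, -0.29 and -2.77 for ZNF703, 2.32 and 0.08 for ZNF750, 0.61 and 2.08 for ZNF564, 0.99 and 2.41 for ZNF596, -1.16 and 0.07 for ZNF823, -1.55 and -0.39 for ZNF326 and -0.23 and 0.83 for ZNF593. In the SOX17 route those of ZNF503, ZNF703, ZNF564 and ZNF593 were not called, and those of the IWR1 route were not tested one by one. ZNF703 and ZNF750 were called without each library in turn. With a pseudocount of 0.1, however, 1 gene was higher and 4 were lower, and ZNF750 was not called. ZNF503 was selected in part by its level in PESFA, so its values are a description. ZNF593 was not called without PESFA replicate 2 (-0.91), and the other 4 were not called without at least 4 of the 8 libraries. Line, medium, dexamethasone and the level in the starting cells differ between the routes and cannot be told apart from them. The same test called 4 of 8 stromal or feeder genes higher, with log2 differences of 4.06 for COL1A1, 3.76 for COL3A1, 1.99 for THY1 and 1.80 for LUM. Of the other cell type markers it called PDPN higher (0.85) and SOX17 (-1.59) and KRT19 (-1.96) lower. Over the 8 genes the sum was 587 and 978 TPM in DK20FA, 113 and 99.0 TPM in sorted SOX17 cells, 4132 and 3499 TPM in PESFA and 299 and 348 TPM in sorted IWR1 cells, and their part in the result was not tested.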

How the results depend on the processing

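None of the 148 called log2 fold changes of named ZNF genes changed sign under the alternatives run. Changes that were not called were not followed. Of the 148, 75 stayed past the threshold without each library in turn; a library left without its partner is assumed to vary like the other conditions. Not past it were 17 after median-ratio scaling, 11 after quantile normalization, 10 with a pseudocount of 0.1, 6 with no filter, 3 with no intensity trend and 124 in a fit of only the libraries compared, which has few residual degrees of freedom by its construction. With replicate number as a block, counts of called genes were 24 for BLSE at 96 h, 57 for day 6 and 22 for day 70, and 1 named change was lost. In the fit of only the libraries compared, the counts were 0 for PESFA against DK20FA, 5 for BLSE and 5 for SOX17 BLSE at 96 h, 0 for SOX17 against BLSE and 0 against LSE at 48 h, 0 for IWR1 at 48 h, 10 for IWR1 at 96 h, 0 for BMS493, 14 for day 6, 0 for day 20, 0 for day 70 and 0 for the route difference. With a change of more than 4-fold and a mean log2(TPM + 1) over the compared conditions above 1.5 required as well, the counts in the same order were 1, 5, 1, 0, 0, 1, 2, 0, 7, 2, 1 and 2, fewer by the construction of that rule. Members at 20 TPM or more gave 28 for SOX17 BLSE at 96 h, 0 for SOX17 BLSE against LSE and 36 for day 6, since fewer genes are counted. Quantile normalization gave 11 for day 70 and a pseudocount of 0.1 gave 5 for the route difference, and the cause was not tested. Leaving out 1 library gave 3 to 13 for PESFA, 14 to 19 for BLSE and 29 to 32 for SOX17 BLSE at 96 h, 3 to 7 for SOX17 against BLSE and 1 to 3 against LSE, 0 to 0 for pre-treatment, 8 to 16 for IWR1 at 48 h, 34 to 43 for IWR1 at 96 h, 0 to 4 for BMS493, 39 to 50 for day 6, 10 to 17 for day 20, 13 to 14 for day 70 and 3 to 10 for the route difference. The choice of members gave 108 genes after scaling, 108 on replicate 1 alone and 115 on replicate 2 alone. Depth is unknown, so how far counting error limits genes at a few TPM cannot be given.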
